A study of Mus musculus with 46 samples.

Results

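The transcripts of the egg cell were followed inside whole cultured mouse follicles through 35 genes known as oocyte specific or oocyte enriched. They were chosen by name from the 25147 genes of the adjusted count table, and all 35 were found both there and in the TPM table, whose values are transcript levels scaled by gene length and library. Each of the 46 libraries came from 1 follicle of the outbred CD-1 mouse stock, after 8 days of growth in alginate with recombinant follicle-stimulating hormone (rFSH), and polyadenylated RNA was amplified. Follicles then received 1.5 IU/ml human chorionic gonadotropin (hCG), which stands in for the ovulatory surge, with 10 ng/ml EGF, 10 mIU/ml rFSH and serum. All 9 follicles of 0 h were in batch 2. The 13 of 1 h and the 13 of 4 h each comprised 10 of batch 1 and 3 of batch 2, and all 11 of 8 h were in batch 1. The libraries' names place batch 1 follicles of 4 h on plate 2, and those of 1 h and 8 h on plate 1. Every follicle after 0 h carried the same hormones, no follicle was kept without them for the same time, and the labels tie no follicle to an animal. The p-values therefore describe how single follicles vary.

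Library totals ran from 241442 to 5185044 adjusted counts, with a median of 3286107 counts at 0 h, 730895 counts at 1 h, 1432395 counts at 4 h and 1755429 counts at 8 h. A group of 3332 genes held 22.6% to 46.2% of the counts in each library at 0 h and at most 0.0667% in any library after hCG. All of them were at 0 in the 6 libraries of batch 2 after hCG and had some count in batch 1. Nlrp9a and Ybx2 are among them, so their differences between times cannot be told apart from that gap. TPM are scaled over a whole library, this group included, so TPM of the other genes at 0 h and at later times do not share one scale. Levels are also given as CPM, counts scaled to a library of 1000000 after each total was adjusted by a scaling factor (TMM). Follicle cells dominated the libraries: 12 granulosa markers summed to a median of 46088 CPM at 0 h, 35159 CPM at 1 h, 30508 CPM at 4 h and 16547 CPM at 8 h. A lower level in a whole follicle can come from fewer cells or from less RNA per cell, and these cannot be told apart.

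A growing oocyte transcribes a store of mRNAs and then falls silent before it is released, so that the egg matures on what it has laid down. It coats itself with the zona pellucida, sends GDF9 and BMP15 to the granulosa cells, and packs a subcortical maternal complex under its membrane that the early embryo needs. When the ovulatory signal arrives, meiosis resumes, some stored mRNAs gain long poly(A) tails and are translated, and others lose their tails and decay. A follicle holds a single oocyte among very many somatic cells, so oocyte mRNAs are a small and shared portion of its RNA.

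The promoters of a zona gene and of a gene of the subcortical complex are shown as examples. The oocyte factor FIGLA is known to bind the E-box CANNTG in zona gene promoters. Within times and batches Zp3 and Padi6 had a Pearson r of 0.464, near the median of 0.411 over 378 pairs of members. Sequences were taken from RefSeq on GRCm38.p6, each with 300 bases around the start of the gene, and every CANNTG, which reads the same on both strands, is in capitals.
Zp3 promoter, chr5:135979855-135980154, plus strand: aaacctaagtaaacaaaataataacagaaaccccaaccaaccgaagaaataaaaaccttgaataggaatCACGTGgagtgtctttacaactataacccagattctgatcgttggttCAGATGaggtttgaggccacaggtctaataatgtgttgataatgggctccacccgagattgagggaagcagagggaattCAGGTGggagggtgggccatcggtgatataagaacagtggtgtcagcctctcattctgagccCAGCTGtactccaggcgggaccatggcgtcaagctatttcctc
Padi6 promoter, chr4:140742594-140742893, minus strand: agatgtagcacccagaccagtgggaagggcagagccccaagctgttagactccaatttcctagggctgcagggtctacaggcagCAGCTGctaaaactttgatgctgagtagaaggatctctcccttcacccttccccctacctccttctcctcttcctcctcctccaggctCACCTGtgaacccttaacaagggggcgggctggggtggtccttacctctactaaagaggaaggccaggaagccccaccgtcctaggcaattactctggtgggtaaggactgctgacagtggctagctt
Zp3 held 4 E-boxes, starting at -181, -134, -55 and 7 from the start site, and Padi6 held 2, at -166 and -78. Of the 26 members matched in the promoter table, 23 held at least 1 E-box (88.5%), against 72.3% of the 32851 promoters of the same length. The letters TAATTA or TAATTG, bound by the oocyte factor NOBOX and searched on both strands, stood in 4 of the 26 (15.4%), against 12.4% of all. These matches describe the letters only.

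The members were counted thinly. All 35 had a count in at least 1 library, 28 had one in at least 23 of the 46 libraries, and Uchl1 alone was counted in every library. The mean count was at least 10 for Uchl1 and H1foo, between 1 and 10 for 27 members, and under 1 for 6. By mean TPM over the 46 follicles Uchl1 ranked 1442 among all genes and H1foo 5376. A filter for testable counts was passed by 8 members (Gdf9, Nlrp14, Tle6, Padi6, Zar1, Bcl2l10, H1foo and Uchl1) among 8629 genes, and the other 27 were under it.

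Among the secreted signals, Gdf9, the growth factor through which the oocyte directs its cumulus cells, had 327 counts in 39 follicles. Its partner Bmp15 had 157 counts in 29 follicles. Gdf9 had a median of 0.981 TPM at 0 h, 3.95 TPM at 1 h, 0.930 TPM at 4 h and 6.42 TPM at 8 h, and its highest follicle, 1 h replicate 12, had 32.1 TPM. The ranges at all times overlapped.

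The zona pellucida genes Zp1, Zp2 and Zp3 encode the glycoproteins of the egg coat. They had 141, 251 and 216 counts in 33, 36 and 37 follicles. Zp3 was the highest per length, with a median of 1.45 TPM at 0 h, 3.68 TPM at 1 h, 1.91 TPM at 4 h and 5.92 TPM at 8 h. Zp2, which binds sperm, had 64 of its 251 counts in 4 h replicate 2.

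Genes of the subcortical maternal complex and its NLRP relatives were the largest group. Tle6 and Padi6 led it with a mean of 8.05 and 7.32 TPM over the 46 follicles, and both are needed for the first embryonic divisions in mice. Tle6 had 442 counts in 42 follicles, Padi6 392 in 36, Nlrp14 274 in 41, Khdc3 222 in 31, Ooep 214 in 41, Nlrp4f 182 in 34 and Nlrp5 (MATER) 181 in 39. Nlrp9a had 435 counts, of which 421 lay in 0 h replicate 3. The NLRP genes and Obox5 belong to families with near-identical copies, so how reads were shared among them is uncertain.

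Transcription factors of the oocyte were near the limit of counting. Obox5 had 144 counts, Lhx8 90 and Nobox 75, whereas Sohlh1 had 17 and Figla 6 counts in all. Genes of mRNA control spanned a wide range: Btg4, an adaptor that recruits the deadenylase to maternal mRNAs, had 399 counts in 36 follicles, and Zar1, which holds stored mRNAs, had 385 in 43. Cpeb1, which binds the cytoplasmic polyadenylation element, had 237 counts, and Dazl, a translational activator, had 71. The germ cell helicase Ddx4 had 3 counts in 2 follicles and the mRNA-packing protein Ybx2 had 3 in 3.

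Chromatin genes were led by H1foo, the linker histone of the oocyte, with 549 counts in 39 follicles, and by Dppa3, which guards the maternal methylome, with 123 in 29. The histone chaperone Npm2 had 64 counts and the methylation cofactor Dnmt3l had 26. Of the genes of meiosis and survival, Bcl2l10, a survival factor of the BCL2 family, had 433 counts in 40 follicles, Rfpl4 had 98 and the meiotic kinase Mos 80. Oosp1, a secreted oocyte protein, had 197 counts in 26 follicles, and Astl, the cortical granule protease that hardens the zona, had 42 in 18. The receptor Kit had 288 counts in 39 follicles. Kit and Uchl1 are expressed by other ovarian cells as well.

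For the content of each follicle, counts were summed over 32 members, leaving out Uchl1 and Kit, which other cells share, and Nlrp9a. The sum made up between 0.000711% and 0.0371% of a library's counts. The lowest follicle, 4 h replicate 6, had 19 counts in 2673815 (TMM-scaled 2748194), or 6.91 CPM (exact Poisson 95% interval 4.16 to 10.8, counting error only). The highest, 1 h replicate 12, had 149 counts in 401328 (TMM-scaled 432906), or 344 CPM (291 to 404), which is 49.8 times as much in CPM. Such intervals treat the counts as reads counted directly, though they had been adjusted between batches, so they are only a guide.

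Follicles of a single time spread widely too. The summed level ran from 20.6 to 245 CPM with a median of 54.0 CPM at 0 h, from 10.1 to 344 CPM with a median of 88.4 CPM at 1 h, from 6.91 to 214 CPM with a median of 35.4 CPM at 4 h, and from 18.1 to 130 CPM with a median of 75.3 CPM at 8 h. The highest follicle of a time exceeded the lowest 11.9-fold at 0 h, 34.2-fold at 1 h and 31.0-fold at 4 h, and at 8 h 7.15-fold, and all 4 ranges overlapped. In batch 2 alone the median was 54.0 CPM at 0 h (n = 9), 78.6 CPM at 1 h (n = 3) and 46.6 CPM at 4 h (n = 3). Counts of these genes were thus found in every follicle, in amounts that differed far more between follicles than between the medians of the times. The fewest were 3 counts in 1 h replicate 10 (2.08 to 29.5 CPM) and 8 counts in 4 h replicate 10. In such follicles the presence of oocyte transcripts rests on very few counts.

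**Figure D1:**
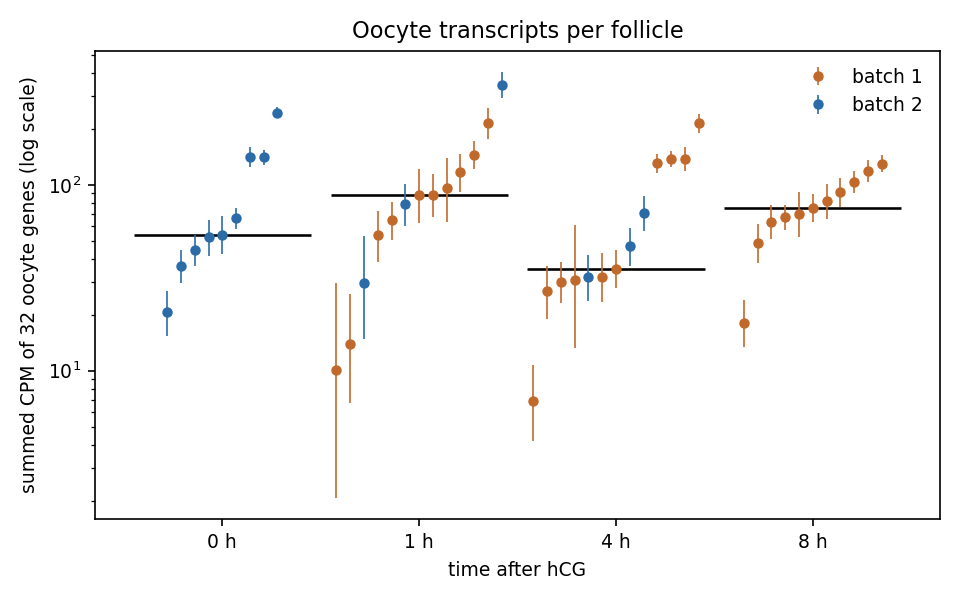
Summed level of 32 oocyte genes in CPM (log axis) for each of 46 follicles by time after hCG. Points are follicles colored by batch, bars are exact Poisson 95% intervals that treat the adjusted counts as reads, and the lines are the medians of 54.0, 88.4, 35.4 and 75.3 CPM. The 4 ranges overlap, and at each time the intervals of the lowest and the highest follicle are far apart.

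Genes of the oocyte varied together between follicles. After the mean of each time and batch was taken off each gene's log2 CPM, the 28 pairs among the 8 members that passed the filter had a median Pearson r of 0.508, and all 28 were above 0, from 0.278 to 0.752 (n = 46 follicles). Among the 28 members counted in at least 23 libraries the median over 378 pairs was 0.411, against 0.011 over the pairs of all 8629 genes tested. With every library thinned to the lowest total it was 0.214, and 317 of the 378 pairs were above 0. Points of these correlations share their library, and low counts pull r toward 0. Across follicles the mean of 26 members, those 28 without Kit and Uchl1, had an r of 0.116 with log2 library size.

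The agreement held for genes of unlike roles. Against the mean of the other members, r was 0.807 for H1foo, 0.777 for Gdf9, 0.770 for Zp1, 0.723 for Bcl2l10, 0.715 for Zp3, 0.702 for Zar1, 0.697 for Btg4, 0.691 for Nlrp14 and 0.689 for Khdc3. It was above 0.5 for 25 of the 28 members. Lower values were seen for Nlrp5 at 0.454 and for Mos at 0.309, and Kit ran the other way at -0.264.

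The strength differed between times as a description. The median r over the 325 pairs of the 26 members was 0.649 among 0 h follicles, 0.404 at 1 h, 0.511 at 4 h, and 0.242 among 8 h follicles. Among the 8 members that passed the filter it was 0.786, 0.569, 0.454 and 0.480 in the same order. The low value at 8 h was thus not seen in these better counted members. The summed level also spread least at 8 h, with a coefficient of variation of 81.6% among 0 h follicles, 88.1% at 1 h, 87.6% at 4 h, and 40.2% among 8 h follicles. Whether these values differ between times was not tested.

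**Figure D2:**
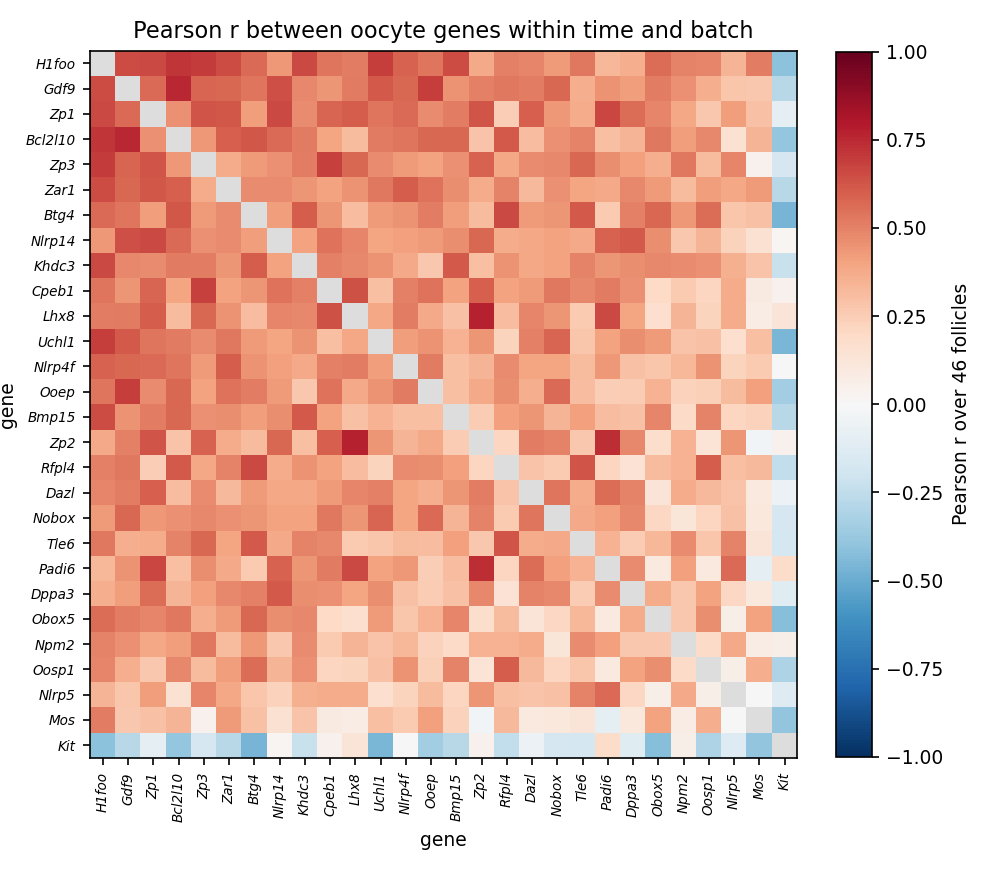
Pearson r between 28 oocyte genes over 46 follicles, on log2 CPM with the mean of each time and batch removed, ordered by r with the mean of the other members from H1foo (0.807) to Kit (-0.264). Red is positive and blue negative, and the diagonal is gray. Most pairs are red, and most of those with Kit are blue.

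Counts were then set against a model in which every follicle holds the same oocyte mixture in a varying amount. The squared deviation of the 26 members' counts over the expected count, per degree of freedom, is expected to be 1 where counting noise alone acts on reads. The counts here had been adjusted between batches, so 1 is only a guide. Scaled by library size it was 7.61 at 0 h, 2.75 at 1 h in batch 1, 8.31 at 4 h in batch 1 and 3.18 at 8 h. Scaled by each follicle's own oocyte total it was 1.94 at 0 h, 1.74 at 1 h in batch 1, 3.35 at 4 h in batch 1 and 2.26 at 8 h. A common amount per follicle thus took up most of the excess over 1 at 0 h, 1 h and 4 h, and a smaller part at 8 h. A remainder above 1 was left at every time.

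The first axis of a principal component analysis of the 26 members held 47.2% of the variance within times and batches, and all 26 loadings were above 0. The second axis held 11.8% and set Padi6 (-0.54) and Zp2 (-0.42) apart from Bcl2l10 (0.29), Obox5 (0.25), Btg4 (0.24), Oosp1 (0.23) and H1foo (0.18). These genes were singled out after their values were seen, so what follows is a description with no test. In 4 h replicate 2, Padi6 had 103 counts and Zp2 64, whereas Bcl2l10 had 2, H1foo 6 and Btg4 0. In 0 h replicate 6, Padi6 had 12 counts and Zp2 11, whereas Btg4 had 109, H1foo 112 and Bcl2l10 62.

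The share of Padi6 and Zp2 in the counts of these 5 genes (Padi6, Zp2, Bcl2l10, Btg4, H1foo) was between 3.45% and 16.7% in the 9 follicles at 0 h. Of the later follicles with a count of these genes, 8 of 12 at 1 h, 9 of 13 at 4 h and 8 of 11 at 8 h lay above that range, and 4, 4 and 3 lay within or below it. Some shares rest on few counts. The pair and the other 3 genes had 2 and 0 counts in 1 h replicate 1, and 2 and 6 in 1 h replicate 9. They had 4 and 19 in 4 h replicate 3 (17.4%), and 4 and 20 in 0 h replicate 4, which set the upper end of the range. The share was 95.4% in 4 h replicate 2, 78.0% in 8 h replicate 8 and 73.8% in 1 h replicate 8, and 8 h replicate 2 had 12 counts of the pair and none of the other 3 genes. It was 2.38% in 1 h replicate 6, 6.41% in 4 h replicate 7 and 10.0% in 8 h replicate 7. In batch 2, where 0 h can be set beside later times, it was 41.2% and 54.7% in 1 h replicates 11 and 12, and 5.26%, 42.1% and 45.5% in the 3 follicles at 4 h. The remaining follicle, 1 h replicate 13, had no count of the 5 genes. Leaving out Padi6 and Zp2, the deviation from a fixed mixture was 2.06 at 0 h, 1.51 at 1 h in batch 1, 2.35 at 4 h in batch 1 and 2.21 at 8 h. With them it was 1.94, 1.74, 3.35 and 2.26 in the same order.

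**Figure D3:**
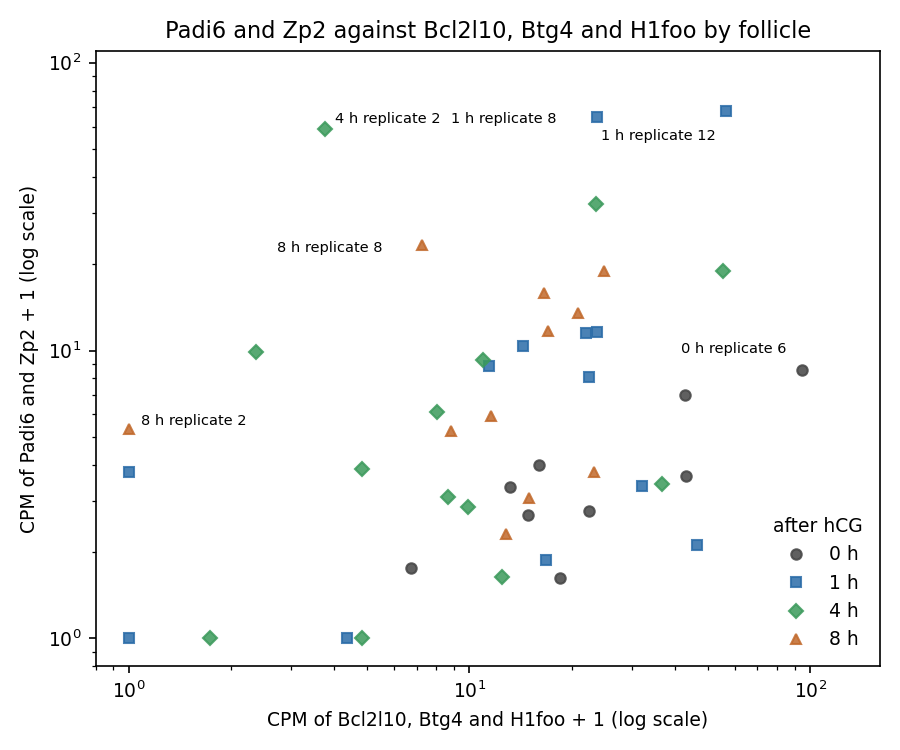
CPM of Padi6 and Zp2 together against CPM of Bcl2l10, Btg4 and H1foo together in 46 follicles, 1 added to each, on log axes, with symbols by time. Follicles at 0 h lie below most others at a given horizontal value, with 3.45% to 16.7% of the 5 genes' counts in Padi6 and Zp2, and 4 h replicate 2 lies at the upper left with 95.4%.

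Over time after hCG most tested members were not called. In edgeR's quasi-likelihood test over all 46 follicles with terms for time and batch, none of the 8 members that passed the filter was called at an adjusted p under 0.05 at 1 h against 0 h (34.6% of 8629 genes were called). None had an unadjusted p under 0.05 there, and DESeq2 called 1 of 35 members (Oosp1; 20.9% of genes). At 4 h against 0 h 1 of the 8 was called (54.2% of genes), and at 8 h against 0 h 1 (45.1%). At 4 h against 1 h 2 were called (54.8%), at 8 h against 1 h 1 (49.1%), and over all times 1 (79.8%). The comparisons with 0 h share their follicles, and 8 h shares no batch with 0 h, so that it is joined to it only through the batch term.

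Their spread between follicles was large. The biological coefficient of variation was 41.6% for Uchl1 and between 63.8% (Tle6) and 122% (Padi6) for the other 7, against a median of 28.3% over all genes tested. Without Uchl1, log2 fold changes of the 7 lay between -0.98 and 1.94 at 1 h against 0 h with standard errors of 0.63 to 1.04, between -1.21 and 1.91 at 4 h against 0 h, and between -1.15 and 1.64 at 8 h against 0 h. Over all 35 members without the filter, the median log2 fold change was 0.45 at 1 h, -0.02 at 4 h and 0.36 at 8 h against 0 h, and over all 19925 genes it was -0.27, -0.14 and -0.18 in the same order.

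**Figure D4:**
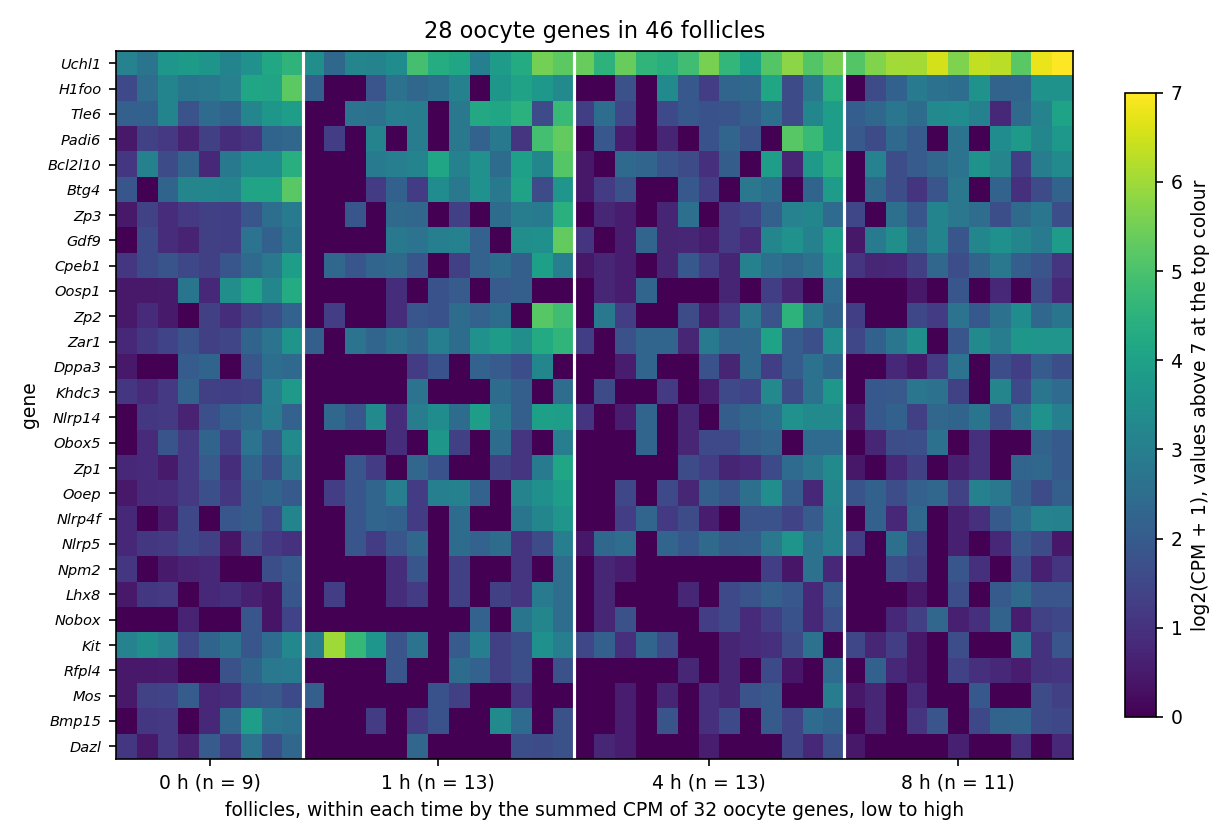
log2(CPM + 1) of 28 oocyte genes (rows, by mean TPM) in 46 follicles (columns), ordered within each time by the summed level of 32 members. Columns brighten from left to right at each time for most genes, Uchl1 brightens from 0 h to 8 h, and Kit is brightest in 1 h replicate 1, the follicle that is second from the left at 1 h.

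Uchl1, a ubiquitin hydrolase abundant in oocytes and neurons, rose. It had between 7.03 and 28.4 TPM with a median of 14.9 TPM at 0 h, between 6.82 and 78.1 TPM with a median of 20.1 TPM at 1 h, between 32.5 and 92.8 TPM with a median of 54.2 TPM at 4 h, and between 66.9 and 309 TPM with a median of 125 TPM at 8 h. Its mean was 16.3 ± 7.48 TPM at 0 h (SD, n = 9), 30.2 ± 23.3 TPM at 1 h (n = 13), 62.0 ± 21.6 TPM at 4 h (n = 13) and 146 ± 72.2 TPM at 8 h (n = 11). In TPM, where the group of 3332 genes takes up part of the scale at 0 h, every follicle at 4 h and at 8 h lay above every follicle at 0 h. By CPM this held at 8 h, where the lowest follicle had 34.1 CPM, but not at 4 h. There replicates 4, 11 and 13 had 21.9, 19.8 and 15.8 CPM, against 22.4 CPM in 0 h replicate 6.

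The log2 fold change of Uchl1 was 0.38 ± 0.40 (SE) at 1 h against 0 h (edgeR adjusted p = 0.476), 1.31 ± 0.39 at 4 h against 0 h (edgeR adjusted p = 0.00431) and 2.39 ± 0.44 at 8 h against 0 h (edgeR adjusted p = 1.5e-05). The call at 4 h against 0 h was lost in batch 2 alone, the only batch with 0 h follicles (0.81 ± 0.39, edgeR adjusted p = 0.12), and with libraries thinned to the lowest total (0.63, edgeR adjusted p = 0.344). Against 1 h it was 0.93 ± 0.28 at 4 h (edgeR adjusted p = 0.00502) and 2.01 ± 0.30 at 8 h (edgeR adjusted p = 1.8e-07). At 4 h against 1 h, the follicles of batch 1 by themselves gave 1.37 ± 0.31 (edgeR adjusted p = 0.000301), and those of batch 2 gave -0.32 ± 0.52 (edgeR adjusted p = 0.771). In batch 1 the 4 h follicles lay on another plate than those of 1 h, so that step and the plate cannot be told apart there. The difference of the step, batch 2 minus batch 1, was -1.70 ± 0.59 (edgeR adjusted p = 0.0997), where 0 of 11 members tested was called (4.53% of 8190 genes), 2 had an unadjusted p under 0.05, edgeR without the filter called 0 of 35 (1.61% of genes) and DESeq2 called 0 of 35 (2.58%). In batch 2, the 3 follicles had 32.5, 33.8 and 48.8 TPM at 4 h, against 15.3, 52.4 and 72.8 TPM at 1 h. Within times and batches Uchl1 followed the other oocyte genes with an r of 0.641 (n = 46), the theca and stroma markers with -0.503, the cumulus markers with 0.293, the mRNAs recruited at maturation with 0.566 and the surface epithelium markers with 0.364. Surface epithelium markers also moved with time, and of 6 listed, 2 were tested. Krt18 rose at 8 h against 0 h (2.39 ± 0.91, edgeR adjusted p = 0.0282), where 45.1% of all genes were called. Both Krt18 (2.52 ± 0.58, edgeR adjusted p = 0.000319) and Krt8 (1.22 ± 0.44, edgeR adjusted p = 0.0183) rose at 8 h against 1 h, where 49.1% were called. The summed level of the surface epithelium markers had a range of 2.93 to 19.9 CPM at 0 h, 0 to 25.3 CPM at 1 h, 7.70 to 53.1 CPM at 4 h and 11.1 to 63.7 CPM at 8 h, and their part in the rise of Uchl1 was not tested.

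**Figure D5:**
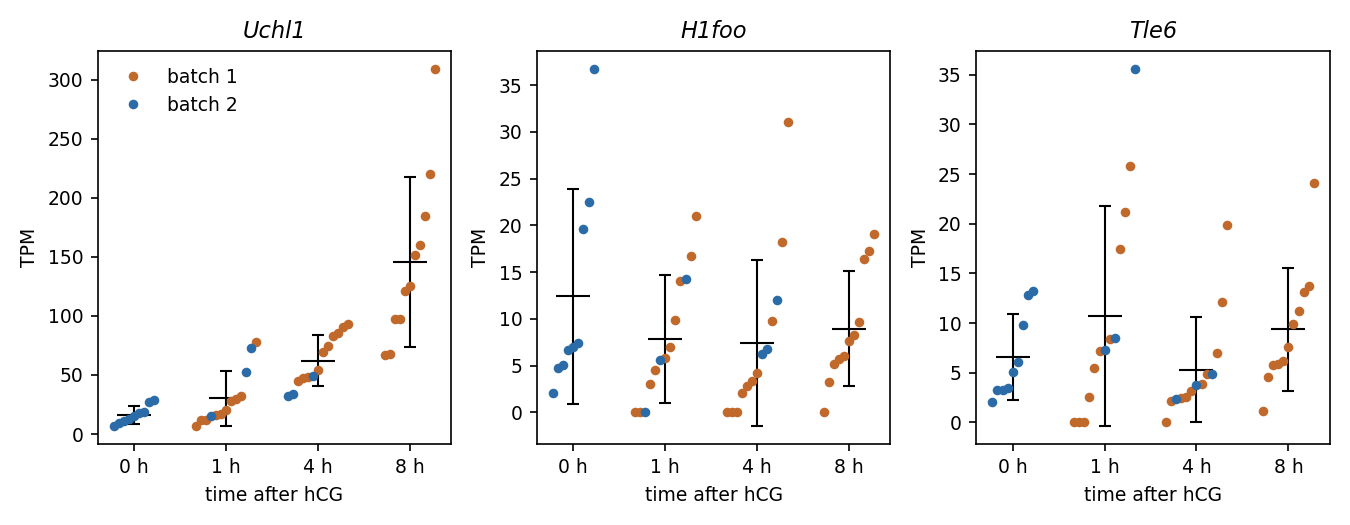
TPM of Uchl1, H1foo and Tle6 in each follicle by time after hCG, colored by batch, with black bars for the mean and SD of 9, 13, 13 and 11 follicles. Uchl1 climbs to a mean of 146 TPM at 8 h, and H1foo and Tle6 overlap at all times.

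H1foo had a median of 6.94 TPM at 0 h (2.10 to 36.8 TPM), 5.86 TPM at 1 h (0 to 21.0), 4.26 TPM at 4 h (0 to 31.1) and 7.58 TPM at 8 h (0 to 19.0). Its log2 fold change against 0 h was -0.98 ± 0.80 at 1 h, -1.21 ± 0.74 at 4 h and -1.15 ± 0.87 at 8 h (edgeR adjusted p = 0.346, 0.163 and 0.284). Against 1 h it was -0.23 ± 0.58 at 4 h and -0.17 ± 0.61 at 8 h (edgeR adjusted p = 0.763 and 0.842).

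Tle6 had a median of 3.75 TPM at 4 h (0 to 19.8 TPM, n = 13), against 7.25 TPM at 1 h (0 to 35.6 TPM, n = 13), and the groups overlapped. Its log2 fold change at 4 h against 1 h was -1.16 ± 0.46 (edgeR adjusted p = 0.0296). The call was lost without 1 h replicate 2 (-1.03), 6 (-0.87), 9 (-1.05) or 12 (-0.88), without 4 h replicate 2 (-1.04) or 11 (-1.04), and in batch 1 alone (-0.84, edgeR adjusted p = 0.184) and batch 2 alone (-2.19, edgeR adjusted p = 0.0961).

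When edgeR was fitted to 19925 genes without the filter, so that all 35 members were tested, it called 2 members at 1 h against 0 h (19.6% of genes), 4 at 4 h (31.4%) and 2 at 8 h (23.7%). It called 2 at 4 h against 1 h (26% of genes), 3 at 8 h against 1 h (25.1%) and 6 over all times (48.1%). The genes named from this fit were chosen after their values were seen. Oosp1 fell in all 3 comparisons with 0 h.

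Oosp1 was counted in 5 of 13 follicles at 1 h with 9 counts in all, in 7 of 13 at 4 h with 15 counts, and in 5 of 11 at 8 h with 13 counts, against all 9 follicles at 0 h with 160 counts. At 0 h it ranged from 1 to 57 counts, and 4 of the 9 follicles had a single count, so the groups overlapped. Its log2 fold change was -4.51 ± 1.35 at 1 h, -4.83 ± 1.27 at 4 h and -5.31 ± 1.45 at 8 h (edgeR adjusted p = 0.0142, 0.00252 and 0.00517). In batch 2 alone, with 0 counts at 1 h and 1 count at 4 h in 3 follicles each, the call was lost at both times (edgeR adjusted p = 0.178 and 0.0993).

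Kit, the receptor through which granulosa KIT ligand acts on the oocyte, fell after 1 h. It had between 0 and 7 counts at 4 h and between 0 and 11 at 8 h, against 0 to 45 at 1 h, and 1 h replicate 1 held 45 of the 87 counts at 1 h. Its log2 fold change was -2.67 ± 0.57 at 4 h against 1 h and -2.69 ± 0.61 at 8 h against 1 h (edgeR adjusted p = 0.000238 and 0.000511). Without 1 h replicate 1 it was -1.79 ± 0.55 at 4 h and -1.69 ± 0.59 at 8 h (edgeR adjusted p = 0.0106 and 0.0286). Theca and stroma markers moved with it: within times and batches Kit had an r of 0.511 with the mean of 11 such markers and of 0.530 with 6 endothelium and leukocyte markers (n = 46 follicles). Of 10 theca and stroma markers tested, 5 fell at 4 h against 1 h and 7 at 8 h against 1 h, and their part in the fall of Kit was not tested. Over all 8629 genes, 54.8% and 49.1% were called in these comparisons, and 2492 and 2236 fell.

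Nlrp5 rose at 4 h against 0 h (2.16 ± 0.66, edgeR adjusted p = 0.00956), with a median of 2.58 TPM at 4 h (0 to 6.39), against 0.490 TPM at 0 h (0.115 to 1.20). Dnmt3l rose at 8 h against 1 h (2.43 ± 0.88, edgeR adjusted p = 0.0362) on 14 counts in 6 of 11 follicles at 8 h, against 1 count in 13 follicles at 1 h, and lost its call without 1 h replicate 1 (2.38) and in batch 1 alone (1.87). Nlrp9a was called lower at 1 h (-7.44) and 4 h (-8.72) against 0 h. Without 0 h replicate 3 these values were -0.60 and -1.85, and neither was called.

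The authors' deposited table compares each later time with 0 h. By the authors' deposited table, a false discovery rate (FDR) under 0.05 was given for 5 of 29 members at 1 h (39.1% of genes), 7 of 31 at 4 h (52.5%) and 6 of 32 at 8 h (49.5%). Oosp1 was lower at all 3 times by the authors' deposited table, with signed fold changes of -6.45, -9.13 and -10.9. In the authors' deposited table Padi6 was higher at 1 h (4.53-fold, FDR 0.0267) and 4 h (3.97-fold, FDR 0.0318), and Zp2 at 1 h (4.81-fold, FDR 0.0144). The authors' deposited table also gives Btg4 as lower at 4 h (-3.93, FDR 0.00774) and 8 h (-4.64, FDR 0.00422), and Dazl as lower at 4 h (-4.10, FDR 0.0124) and 8 h (-7.30, FDR 0.0018). In edgeR without the filter Btg4 had -2.29 ± 0.94 at 4 h and -2.62 ± 1.07 at 8 h (edgeR adjusted p = 0.0565 and 0.0673), and DESeq2 called it at both times (-2.35 and -2.67). In edgeR Padi6 was not called against 0 h with the batch term, and without that term it was called at 1 h (2.00), 4 h (1.99) and 8 h (1.68).

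Beyond the members, the gene nearest to the mean of the 8 tested members within times and batches was Zbed3, known as a subcortical complex protein, with an r of 0.849. Tcl1, an oocyte and embryo factor, followed at 0.809, and the next 3 were clone-named transcripts (RP23-281O10.1, RP23-468M24.3 and RP23-266O23.1) with 0.781, 0.772 and 0.757. The median over 8621 other genes was 0.020 (n = 46 follicles). The gene lists were set against another mean of the members, with which Zbed3 had 0.863 and Tcl1 0.811, so the median of 0.020 is only near their background. In a list of 70 further oocyte genes, 29 of 69 present were counted in at least 23 follicles, and their median r with that mean was 0.564, with 19 of the 29 above 0.5. Oas1c (0.796), Fbxw24 (0.767), Fbxw14 (0.761) and Oog1 (0.747) were among them. For granulosa markers the median was 0.076, for cumulus markers under oocyte control 0.072, for granulosa partners of oocyte signals 0.054 and for theca and stroma markers -0.063. It was -0.107 for 6 endothelium and leukocyte markers and higher, at 0.267, for 3 surface epithelium markers.

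Of the 10 further oocyte genes that were tested, 1 rose at 1 h against 0 h, 1 rose and 1 fell at 4 h, and 1 rose at 8 h, where 34.6%, 54.2% and 45.1% of all genes tested were called. Taf4b, a subunit of a germ cell transcription complex, rose at 1 h (3.18 ± 0.50, edgeR adjusted p = 2.5e-06) and 4 h (1.58 ± 0.46, edgeR adjusted p = 0.003). Uhrf1, a partner of maintenance methylation, fell at 4 h (-1.17 ± 0.38, edgeR adjusted p = 0.00748), and the methyltransferase Dnmt1 rose at 8 h (0.65 ± 0.26, edgeR adjusted p = 0.035). These 3 genes are also used by dividing somatic cells.

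Of 17 tested mRNAs known to be recruited by polyadenylation at maturation, 1 rose and 2 fell at 1 h against 0 h, 1 rose and 5 fell at 4 h, and 2 rose and 8 fell at 8 h, with a median log2 fold change of -0.38, -0.33 and -0.78. Calls thus covered 3, 6 and 10 of the 17, where 34.6%, 54.2% and 45.1% of all genes were called. The cyclin Ccnb2 fell at 4 h (-2.86 ± 0.44, edgeR adjusted p = 3e-07) and 8 h (-3.82 ± 0.51, edgeR adjusted p = 3.2e-08), and Plat, a protease, rose at 8 h (1.45 ± 0.54, edgeR adjusted p = 0.026). The cytokine Il7 rose at 4 h (6.92 ± 0.67, edgeR adjusted p = 3.9e-12), and its step at 4 h against 1 h differed between the batches (batch 2 minus batch 1 -3.77 ± 0.60, edgeR adjusted p = 0.000745). The median r of this list with the members was 0.117 and none of its 17 genes was above 0.5, and many of them are used by somatic cells as well.

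Falls outnumbered rises among the tested granulosa partners of oocyte signals, as they did among all genes. Of 14 tested partners of oocyte signals, 1 rose and 3 fell at 1 h against 0 h, 1 rose and 7 fell at 4 h, and 2 rose and 9 fell at 8 h, with a median of -0.47, -0.75 and -1.37 against -0.19, -0.12 and -0.15 over all genes tested. Over all 8629 genes, 1071 rose and 1914 fell at 1 h, 1894 rose and 2779 fell at 4 h, and 1512 rose and 2380 fell at 8 h. At 8 h against 0 h, Npr2, the receptor that keeps the oocyte arrested, fell by 4.46 on the log2 scale (SE 0.33, edgeR adjusted p = 1.4e-15), and its ligand Nppc fell by 5.16 (SE 0.59, edgeR adjusted p = 6.6e-10). Bmpr1b, a BMP receptor, fell by 1.69 at 4 h (SE 0.26, edgeR adjusted p = 4.9e-07), and Tgfbr1, which pairs with the GDF9 receptor, rose at 8 h (1.63 ± 0.31, edgeR adjusted p = 2.6e-05). The step of Tgfbr1 at 4 h against 1 h differed between the batches (batch 2 minus batch 1 -1.68 ± 0.40, edgeR adjusted p = 0.0146). Of 18 tested cumulus markers under oocyte control, 5 rose and 7 fell at 1 h, 5 rose and 10 fell at 4 h, and 7 rose and 2 fell at 8 h, so that rises outnumbered falls at the last time. Slc38a3, a transporter through which cumulus cells feed the oocyte, fell by 4.84 at 4 h against 0 h (SE 0.87, edgeR adjusted p = 6.8e-06), and Ptx3 of the cumulus matrix rose at 8 h against 1 h (5.81 ± 0.65, edgeR adjusted p = 1.5e-10).

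The 3' untranslated regions of the members were short by their median in GENCODE M21 (GRCm38), with wide variation. Of the 35 members, 32 had at least 50 bases, with a median of 277 bases, against 891 bases for 18179 genes of the count table with the same minimum. Zp1, Zp2 and Zp3 were under the minimum with 34, 49 and 13 bases, whereas Bmp15, Ooep, Kit and Dazl, with 1523, 1446, 2177 and 1852 bases, lay above the median of all genes. A cytoplasmic polyadenylation element, TTTTAT or TTTTAAT on the sense strand, stood in the last 100 bases in 7 of the 32 members (21.9%), against 17.5% of those genes.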

How the data were processed

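Libraries were made from single follicles with Smart-Seq2 and Nextera XT, which do not mark the strand, per the labels' protocols, so overlapping genes share reads. HISAT2, Partek, DESeq2 and GRCm38 were used, per the submitters' processing notes, with versions and roles not given in the sources used here. The deposited whole-number counts were adjusted between batches with ComBat-seq, per the name of the table, with settings not given in the sources used here. The authors deposited TPM computed from these counts, per that table's name. The deposited comparison table of the authors gives, against 0 h, a p-value, an FDR and a fold change written as a signed score, a fall being minus the inverse ratio. Left out were 10 columns of counts and 10 columns of TPM that no sample's labels name.

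For 46 libraries the counts went into edgeR 4.0.16 under R 4.3.3 (TMM factors, filterByExpr on the times, quasi-likelihood F test, terms for time and batch, Benjamini-Hochberg over all genes tested, call at an adjusted p under 0.05). CPM used TMM-scaled totals, and log2 CPM a prior count of 2. The script was tested on simulated data. Alternatives were RLE factors, no filter, no batch term, a block for the replicate number, no "_ds" libraries of 0 h (a mark whose meaning is not given in the sources used here), thinning, single batches, DESeq2 1.42.0, limma 3.58.1 on log2 TPM and leaving out each library. The members, the lists and the alternatives were chosen with earlier results of these data known. The rule for named genes gave values of members with a mean count of at least 10 or a call, up to 2 called rises and 2 falls of each list, and the 5 nearest other genes.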

Additional observations from a re-analysis of the deposited data

Results flagged for a closer look

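Values were tested in 42 groups, each from 9 or 10 follicles of the same time and batch. The 11 follicles of 8 h, and the 3 of batch 2 at 1 h and at 4 h, were not tested in this way. In the 42 groups 9 values of named members stood apart from the rest of their group by more than Dixon's 95% limit. Chance passes that limit in about 1 in 20 groups of normally distributed values. The values were untransformed CPM, many from low counts, so that rate need not hold here. Of the 9, 2 rest on a single count. At 0 h, replicate 6 had 37.0 CPM of H1foo, against 1.90 to 16.6 CPM in the other 8 follicles, 20.5 CPM of Bcl2l10, against 0.750 to 9.64, and 11.2 CPM of Zar1, against 0.762 to 5.39. That follicle also had the highest summed level of oocyte genes at 0 h, 245 CPM. At 0 h, replicate 3 had 225 CPM of Nlrp9a, against at most 0.330 CPM in the others, on 421 counts. At 1 h in batch 1, replicate 8 had 28.9 CPM of Padi6, against at most 7.82 CPM in the other 9, and 45.4 CPM of Uchl1, against 4.20 to 19.12 CPM. In the same group, replicate 1 had 63.0 CPM of Kit, against at most 11.7 CPM, and replicate 3 had 0.874 CPM of Dnmt3l on 1 count, against 0 in the others. At 4 h in batch 1, replicate 1 had 0.747 CPM of Nlrp9a on 1 count, against at most 0.346 CPM.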

How the results depend on the processing

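The co-variation of the 8 tested members had a median r of 0.404 to 0.569 under every alternative run but 0.732 in batch 2 alone and 0.786 at 0 h alone, and 0.461 to 0.544 with each follicle left out. For the counts of members called, given as 1 h, 4 h and 8 h against 0 h, 4 h and 8 h against 1 h, and all times, leaving out each follicle gave 0 to 1, 1 to 2, 1 to 2, 1 to 3, 1 and 1 to 2, the additions being Btg4 (without 0 h replicates 1, 2, 4, 5, 8 or 9), Zar1 (without 0 h replicate 6 or 4 h replicate 7) and Tle6 (over all times, without 4 h replicate 1). Without the filter they were 2, 4, 2, 2, 3 and 6 of 35, and with DESeq2 1, 5, 3, 3, 2 and 4 of 35. DESeq2 called 20.9%, 32.2%, 27.5%, 28.3%, 26% and 46.1% of all genes in the same order. With limma, among genes with a mean of at least 1 TPM, they were 3, 4, 4, 2, 3 and 5 on log2(TPM + 1) and 1, 3, 3, 2, 3 and 5 on log2(TPM + 0.1). The genes tested and the share of all genes called differ between settings, so counts of members called, read alone, do not show more or less change. Without the batch term they were 2, 3 and 3 against 0 h, and without the set-apart genes 3 at 4 h, 2 at 8 h, 2 at 8 h against 1 h and 2 over all times. Without the "_ds" libraries 3 were called at 4 h against 1 h (Kit, Uchl1 and Tle6) and 2 at 8 h against 1 h and over all times. DESeq2's scaling gave medians of 0.14, 0.07 and 0.05 against 0 h over all 19925 genes, where edgeR gave -0.27, -0.14 and -0.18. Thinned to the lowest total, 0 were called at 4 h against 0 h and 0 against 1 h, and each batch alone called 1 at 4 h against 1 h. The replicate numbers only name follicles. With a replicate block 0 were called at 4 h against 0 h and 1 at 4 h against 1 h, Uchl1 at 4 h against 0 h lost its call (2.15, edgeR adjusted p = 0.118), Tle6 did too (-1.11), the median r was 0.554, and H1foo reversed to 1.07, 0.77 and 1.05 at 1 h, 4 h and 8 h. H1foo also reversed at 8 h against 0 h with limma on log2(TPM + 0.1) (0.023), at 8 h against 1 h with limma (0.52 and 1.03) and at 4 h against 1 h in batch 2 alone (0.37), and left-out follicles moved it between -0.59 and 0.058 at 4 h and -0.31 and 0.17 at 8 h against 1 h. Thinned, Uchl1 reversed at 1 h against 0 h (-0.085) and lost its call at 4 h (0.63 against 0 h, 0.72 against 1 h). In batch 2 alone it was -0.32 at 4 h against 1 h and lost its call at 4 h against 0 h (0.81). It kept its calls with each of the 46 follicles left out. Nlrp9a reversed with DESeq2 at 1 h against 0 h (1.36), which gave no adjusted p. The cause of these changes was not tested. Low counts limit every member but Uchl1, and 27 of 35 were under the filter in the test over all 46 follicles.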
